A study of Mus musculus with 43 samples.

Results

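The hearts described here carried a premature stop codon in Vegfa, the gene of the main endothelial growth factor of the heart, and were sampled 7 days after myocardial infarction (MI). The comparison set 4 whole-heart RNA-seq libraries of Q150X mice at day 7 against 3 libraries of uninjured Q150X hearts at homeostasis. These 7 of the 43 bulk libraries of the series were taken by their labels: tissue heart, all cells, genotype Q150X, and either 7 days after MI or homeostasis. The allele, written VegfaQ150X/Q150 by the submitters and abbreviated HO in their sample names, was made in mice by CRISPR/Cas9 editing to model a human stop-gained variant. Every library compared carried it, so the differences below are between an infarcted and an uninjured Q150X heart and not between genotypes. Wild-type whole hearts of the same 2 stages, 7 libraries, served to ask whether the change differed with genotype. Whole hearts taken 30 days after MI, 4 Q150X and 3 wild-type libraries, were part of the same fit. They shared in its filter, scaling and estimate of spread and were not compared. The control was the uninjured heart, so the effects of the operation and of the infarct cannot be told apart. Strain, sex, age, the region of the heart taken and whether the replicates are separate animals are not stated in the labels. P-values therefore measure the spread between these libraries, which may in part be technical.

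After an infarct, dead muscle is cleared by monocytes and macrophages drawn from the blood, and fibroblasts activated by TGF-beta fill the defect with a collagen-rich scar that lysyl oxidases crosslink. The surviving cardiomyocytes re-express fetal genes and lower the channels and calcium-handling proteins of the adult cell. VEGF-A, secreted largely by cardiomyocytes and acting through the endothelial receptors KDR and FLT1, maintains the capillaries that supply them. A whole-heart library mixes all of these cells, and fewer cells of a type cannot be told apart from less RNA per cell.

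The 4 day 7 libraries held 29930836 to 37356177 counts and the 3 homeostasis libraries 30757923 to 32096589. Tnnt2, cardiac troponin T, was measured at 4248 to 5965 CPM (counts scaled to a library of 1000000, adjusted between libraries by TMM factors) in all 7. Xist was at most 0.335 CPM and the Y-linked Ddx3y at least 50.9 CPM in all 7. No library was a copy of another in its group, the closest pair differing by 13.8 times the variance of counting. The standing apart of 2 libraries touches the results. Homeostasis library 1 contained atrial and fat RNA: it held 468 CPM of the atrial myosin light chain Myl7, against at most 0.0494 CPM in the other 6 libraries, and 645 CPM of the lipogenic enzyme Fasn, against at most 21.7. The sum of the 10 atrial and conduction tissue markers measured ran between 134 and 1184 CPM at day 7 and between 95.5 and 2673 CPM at homeostasis. Of the defining markers, Sln and Ucp1 were at 0 in the 4 day 7 libraries. Homeostasis library 1 also had the lowest Vegfa of the 7. Day 7 library 2 had 364 CPM of the interferon-induced GTPase Gbp2, against at most 33.9 CPM in the other 6. Each gene group below was therefore also counted without homeostasis library 1, without day 7 library 2, and without both. These counts are given for only some of the groups, so a group given without them may also move. The part of the 2 libraries in the results that move with them was not tested in any other way.

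Of 17845 genes tested, 4641 changed at day 7 (26.0% of those tested, edgeR quasi-likelihood test, Benjamini-Hochberg adjusted p below 0.05). Expression rose for 2454 genes (13.8%) and fell for 2187 (12.3%). More than 2-fold, 1274 genes rose and 802 fell. The median log2 fold change of all genes tested was 0.06, against which the list medians below should be read. Scaling by library size alone, with no correction for composition, shifted that median to 0.28, and 77.4% of the called genes then rose, against 52.9% with TMM factors. With that scaling falling lists had fewer calls, 3 falls of 20 sarcomere genes against 7, and 1 of 15 basement membrane genes against 4. Rising lists had more, such as 10 rises of 22 TGF-beta genes against 5, 13 of 30 fatty acid oxidation genes against 8, and 8 of 22 immediate early genes against 4. Fitted on the 7 Q150X libraries alone, without the other 14 whole-heart libraries to share the estimate of spread, 2247 genes were called. Without homeostasis library 1 the count was 4215, of which 3157 were among the 4641. Without both libraries that stand apart it was 3784, of which 2820 were among them, none with a changed sign. Over 44 gene lists, 801 of 816 members passed the filter on low counts, 180 rose, 142 fell and 479 did not pass the test. The counts of called members below should be read against the 26.0% called among all genes tested.

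**Figure D1:**
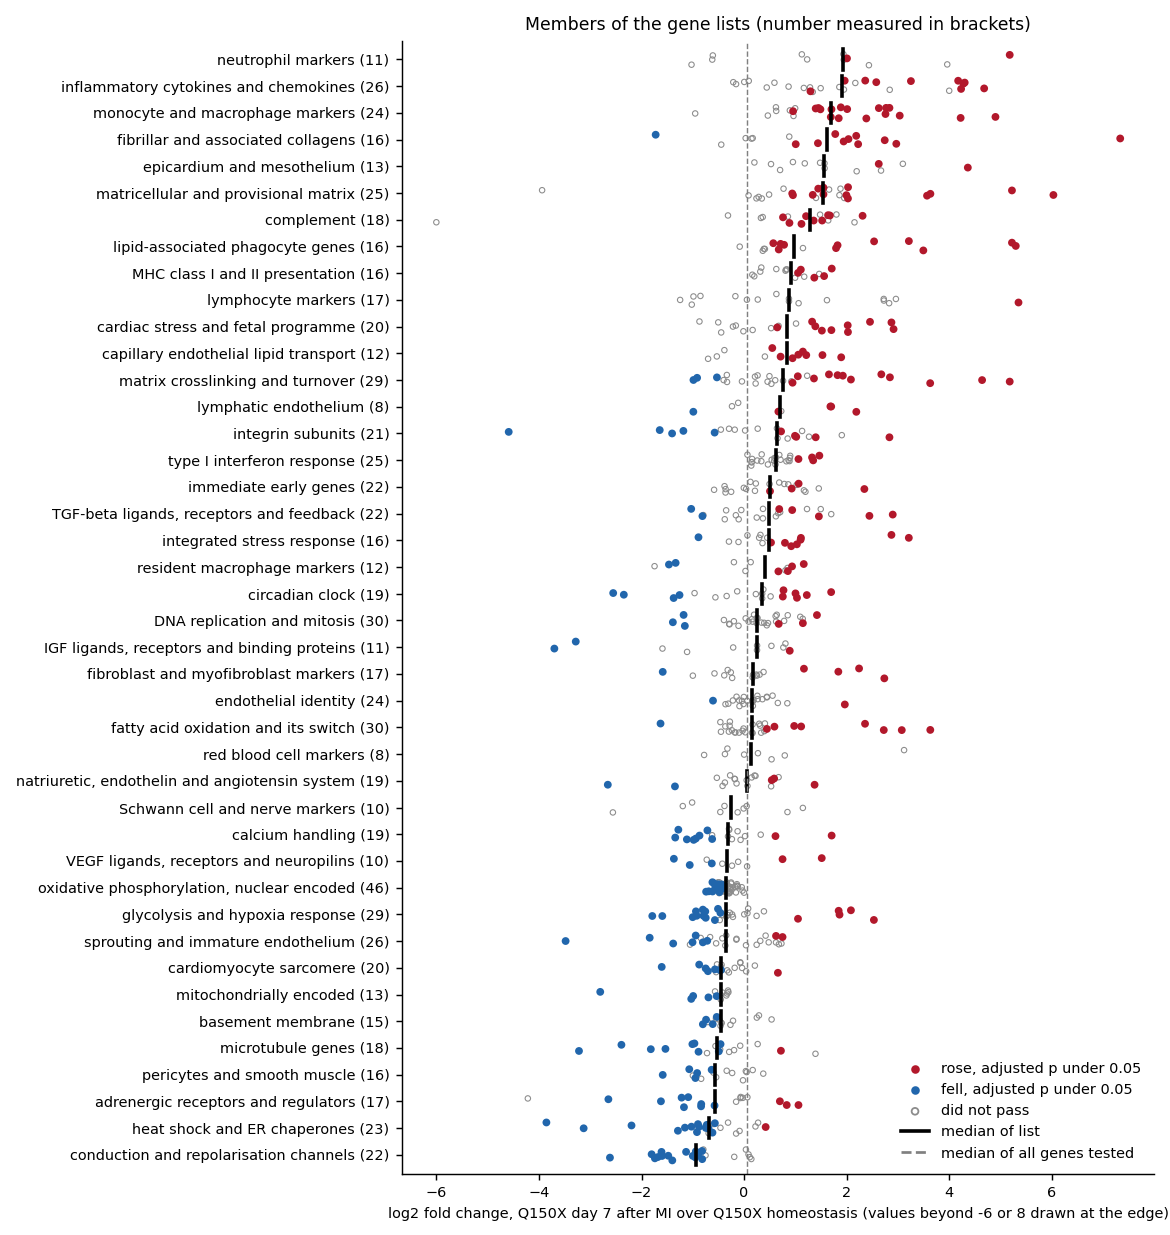
Log2 fold change of every measured member of 42 gene lists in Q150X whole hearts, day 7 after MI over homeostasis, on the x axis; filled points passed at an adjusted p below 0.05, open points did not, and bars are list medians. Inflammatory, fibrillar collagen, matricellular and complement lists lie to the right of the all-gene median of 0.06 (dashed). Conduction channels, at a median of -0.95 with all 7 Q150X libraries, lie farthest left. Atrial and adipocyte markers, whose medians change sign without homeostasis library 1, are left out.

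The strongest increases included scar matrix, acute-phase and phagocyte genes. Lox (ENSMUSG00000024529), which codes the lysyl oxidase that crosslinks collagen and elastin, was at 205, 173, 163 and 94.7 CPM in the 4 day 7 libraries, against 8.996, 4.80 and 5.35 CPM in the 3 homeostasis libraries. The log2 fold change was 4.64 ± 0.47 (SE, adjusted p = 4.49e-06), a 24.9-fold higher level. The groups did not overlap, which was required of every gene named for the size of its change. Of the 17845 genes tested, 5461 had no overlap between the groups. Postn, periostin, a matrix protein of activated fibroblasts, was at 903, 241, 763 and 314 CPM at day 7, against 56.98, 45.3 and 32.1 CPM at homeostasis. Its log2 fold change was 3.63 ± 0.51 (adjusted p = 8.49e-05), with the 4 day 7 libraries spread over a wide range and all above homeostasis. Cthrc1, a collagen triple-helix protein secreted by scar fibroblasts, was at 31.04, 13.5, 23.8 and 10.95 CPM, against 0.645, 0.269 and 0 CPM, and Spp1, osteopontin, was at 23.2, 23.7, 42.95 and 14.4 CPM, against 1.75, 0 and 0.392 CPM. Saa3, an acute-phase serum amyloid, was at 73.2, 586, 4.57 and 21.01 CPM at day 7, against 0.531, 0 and 0 CPM at homeostasis, so that day 7 library 2 alone was far above the other 3. Clec4d and Fcgr4, a lectin and an Fc receptor of myeloid cells, rose by 6.54 ± 0.81 and 4.94 ± 0.85 on the log2 scale. Plac8, expressed in several immune cells, rose by 4.90 ± 1.27, with library 2 again the highest at 40.0 CPM. The immunoglobulin constant regions Igha and Igkc rose by 4.43 ± 0.91 and 3.69 ± 0.73, both genes of antibody-producing B-lineage cells. Angptl4, an inhibitor of lipoprotein lipase induced by fatty acids, was at 76.2 to 112 CPM at day 7, against 3.83 to 10.8 CPM at homeostasis. Clca3a1 rose by 4.06 ± 0.48 on the log2 scale. By limma voom with sample weights, Saa3 (adjusted p = 0.423), Plac8 (0.166), Cthrc1 (0.0814), Spp1 (0.0578) and Igha (0.0518) were not called.

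The strongest decreases were of genes with varied roles. Itgb6 (ENSMUSG00000026971), the beta 6 integrin subunit that in epithelia binds and activates latent TGF-beta, was at 1.51, 0.823, 0.518 and 0.860 CPM at day 7, against 21.03, 23.3 and 23.6 CPM at homeostasis. That left 4.15% of the homeostasis level (log2 fold change -4.59 ± 0.35, adjusted p = 3.75e-07), with close agreement within each group. Tfrc, the transferrin receptor through which cells import iron, was at 16.8, 17.5, 15.3 and 18.03 CPM, against 297, 217 and 144 CPM, with a log2 fold change of -3.70 ± 0.30 (adjusted p = 3.75e-07). The day 7 libraries lay within 3 CPM of each other and the homeostasis libraries did not. Tuba4a, an alpha tubulin abundant in muscle and nerve, was at 71.6, 98.4, 67.01 and 97.9 CPM at day 7, against 1233, 518 and 588 CPM at homeostasis. Apln, the peptide apelin made by sprouting endothelium, was at 3.92, 0.9995, 1.46 and 0.827 CPM, against 15.4, 26.3 and 19.5 CPM. Both groups were separate for each of these genes, as their choice required. Adcy1, an adenylyl cyclase, fell by 3.53 ± 0.54 on the log2 scale, and Ky, a muscle protein whose loss causes kyphoscoliosis in mice, fell by 3.02 ± 0.33. Lingo3, Fam78a, Klhdc8a, Gal3st3 and Klhdc7a fell by 2.97 to 3.60. Hspa1b, an inducible heat shock protein 70, completed the 12 and is taken up with the chaperones. For all of the 12 but Itgb6, Apln and Hspa1b, homeostasis library 1 was the highest of the 7. All 12 were also called without it.

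**Figure D2:**
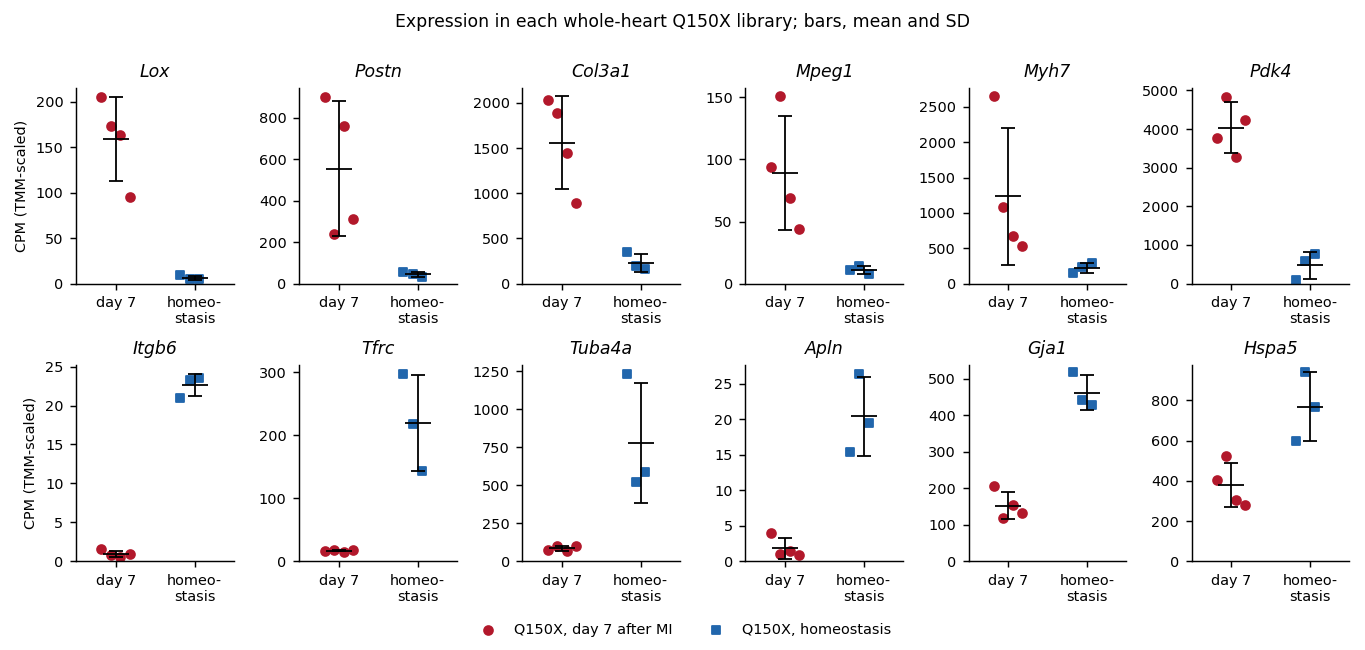
CPM (TMM-scaled, y axis from 0) of 12 genes in each Q150X whole-heart library, day 7 after MI on the left (n = 4) and homeostasis on the right (n = 3); bars give the mean and SD. The top row rose and the bottom row fell. The 2 groups do not overlap in any of the 12 panels, which held for 5461 of the 17845 genes tested. It was required of the genes chosen for the size of their change.

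Scar collagens and the proteins that organise them rose together. Of 16 fibrillar and associated collagens measured, 10 rose, 1 fell and 5 did not pass, with a median log2 fold change of 1.61. Col3a1, the collagen of early scar, was at 2028, 1883, 1441 and 889 CPM at day 7, against 346, 197 and 157 CPM at homeostasis (log2 fold change 2.74 ± 0.46, adjusted p = 0.000374). Col5a2 and Col16a1, which regulate and decorate collagen fibrils, rose by 2.04 ± 0.35 and 1.78 ± 0.32. Col11a1, a fibril-nucleating collagen best known from cartilage, had 646 counts over the 4 day 7 libraries, against 2 counts over the 3 at homeostasis. The ratio was 230.8 (95% exact interval 63.6 to 1910, counting error only), scaled by library totals without TMM factors. Col15a1, a collagen of the basement membrane zone, was the member that fell, at 70.6, 22.96, 43.1 and 28.8 CPM, against 115, 164 and 131 CPM. Basement membrane genes did not share the rise: of 15, 0 rose, 4 fell and the median was -0.46. Their called share, 26.7%, was near the 26.0% of all genes tested. Without day 7 library 2, 1 rose and 1 fell at a median of -0.39. Without homeostasis library 1, 0 rose and 5 fell at -0.63, and without both libraries 0 rose and 3 fell at -0.56. Lama4, a laminin chain of vessels and muscle, was at 57.2 to 74.8 CPM at day 7, against 83.4 to 123 CPM at homeostasis (log2 fold change -0.74 ± 0.15, adjusted p = 0.00157).

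Of 25 matricellular and provisional matrix genes, 13 rose and 0 fell, with a median of 1.55. Beside Postn, Spp1 and Cthrc1, Thbs2, a thrombospondin that modulates cell and matrix contacts, was at 92.2, 64.7, 105 and 77.7 CPM at day 7, against 26.7, 14.3 and 21.5 CPM. Dcn, decorin, a collagen-binding proteoglycan, was at 794, 843, 860.1 and 892 CPM, against 517, 429 and 381 CPM, a smaller rise with no overlap. Enzymes of crosslinking and turnover split: of 29, 12 rose, 3 fell and the median was 0.76. Loxl3, a lysyl oxidase-like enzyme, rose by 1.93 ± 0.44, Bmp1, the procollagen C-proteinase, by 1.05 ± 0.23, and the stromelysin Mmp3 by 2.08 ± 0.49. Serpinh1, the endoplasmic reticulum chaperone of procollagen, fell to 185, 152, 160.4 and 122 CPM at day 7, against 292, 321 and 264 CPM at homeostasis. P4ha1, a collagen prolyl hydroxylase, and Plod1, a lysyl hydroxylase, fell by 0.99 ± 0.24 and 0.53 ± 0.14. These 3 proteins act on new collagen inside the cell. Without both libraries the counts were 10 rises and 1 fall for the collagens, 14 and 0 for the matricellular genes and 12 and 2 for the enzymes.

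Markers of fibroblasts as such moved less. Of 17 measured of 18, 4 rose, 1 fell and the median was 0.17. Mfap5, a microfibril protein, was at 139.7, 51.9, 105 and 67.5 CPM at day 7, against 28.7, 27.6 and 20.03 CPM. Vim, the intermediate filament vimentin, rose by 1.17 ± 0.32, and was not called without homeostasis library 2 or 3 (adjusted p = 0.0520 and 0.0619). Acta2, the smooth muscle actin that marks myofibroblasts as well as smooth muscle, fell to 62.98, 62, 73.8 and 59.3 CPM, against 374, 90.3 and 117 CPM at homeostasis, where library 1 was more than 3 times as high as the other 2. Without library 1 its log2 fold change was -0.68 (adjusted p = 0.0258). Gsn, gelsolin, did not pass (-0.26 ± 0.39, adjusted p = 0.66). Of 22 TGF-beta ligands, receptors and feedback genes, 5 rose, 2 fell and the median was 0.49. Fstl1, a follistatin-like glycoprotein, was at 211 to 409 CPM at day 7, against 78.5 to 112 CPM, and Fst, the activin antagonist, rose by 2.90 ± 0.69. The type 2 receptor gene Tgfbr2 rose by 0.68 ± 0.18. Smad3, which carries the TGF-beta signal to the nucleus, fell to 18.7, 15.4, 16.2 and 15.2 CPM, against 38.2, 24.97 and 23.2 CPM, and the latency protein Ltbp1 fell by 1.03 ± 0.20. Without both libraries 8 of the 22 rose and 2 fell, at a median of 0.95.

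Monocyte and macrophage genes were higher at day 7 in all 4 libraries. Of 24, 17 rose, 0 fell and the median was 1.70. Mpeg1, macrophage perforin-2, was at 93.5, 151, 68.96 and 43.6 CPM at day 7, against 10.97, 14.2 and 7.45 CPM at homeostasis (log2 fold change 3.03 ± 0.51, adjusted p = 0.000428). Ctss, the lysosomal protease cathepsin S, was at 118, 237, 68.6 and 47.7 CPM, against 20.1, 19.7 and 12.5 CPM, and Lyz2, lysozyme, was at 506, 706, 306 and 267 CPM, against 153, 152 and 106 CPM. In each of these 3 genes day 7 library 2 was the highest and library 4 the lowest. Ms4a7, a macrophage membrane protein, varied less, at 15.97, 11.3, 14.96 and 9.43 CPM, against 2.13, 2.92 and 1.21 CPM, and the Fc receptor Fcgr3 rose by 2.01 ± 0.34. The summed level of the 24 genes ran between 773 and 1916 CPM at day 7 and between 279 and 576 CPM at homeostasis. Without day 7 library 2, 13 rose at a median of 1.33, and without both libraries 17 rose at 1.59. Lipid-associated phagocyte genes, typical of macrophages that have taken up debris, followed: of 16, 11 rose and 0 fell, with a median of 0.96. Gpnmb, a transmembrane glycoprotein of such cells, was at 25.4, 11.99, 27.2 and 17.5 CPM at day 7, against 3.83, 0.604 and 1.07 CPM, and Lgals3, galectin-3, was at 25.7, 26.5, 33.1 and 14.3 CPM, against 5.01, 2.05 and 1.03 CPM. Lipa, the lysosomal acid lipase, was at 46.2, 45.2, 38.7 and 38.97 CPM, against 20.5, 27.1 and 26.3 CPM, a small and even rise (0.78 ± 0.13, adjusted p = 0.000252).

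Resident macrophage markers moved in both directions: of 12, 4 rose, 2 fell and the median was 0.40. The mannose receptor Mrc1 was at 67.2, 60.5, 61.7 and 60.6 CPM at day 7, against 30.1, 38.4 and 29.6 CPM, and Lyve1, the hyaluronan receptor shared with lymphatic vessels, was at 30.6, 36.8, 30.9 and 34.5 CPM, against 20.9, 24.2 and 17.5 CPM. The transcription factor Maf rose by 1.16 ± 0.33 and the efferocytosis receptor Mertk by 0.85 ± 0.26. Cbr2, a carbonyl reductase of resident cells, was at 7.995, 6.50, 7.40 and 8.90 CPM, against 36.8, 11.9 and 9.62 CPM, and was not called without homeostasis library 1 (adjusted p = 0.427) or day 7 library 1, 2 or 3 (0.0521 to 0.0698). Single libraries also ended the other calls: without homeostasis library 3 the adjusted p was 0.0542 for Mrc1 and 0.0628 for Lyve1, without homeostasis library 2 it was 0.0529 for Maf, and without day 7 library 2 it was 0.0535 for Mertk. Without both libraries 0 of the 12 passed, Mrc1 at an adjusted p of 0.0768 and Maf at 0.0532.

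Other immune groups depended more on day 7 library 2. Of 26 inflammatory cytokines and chemokines, 10 rose, 0 fell and the median was 1.90, against 8 rises, 1 fall and 0.91 without that library. Ccl9, a monocyte chemokine of the mouse, was at 34.4, 40.7, 27.4 and 27.03 CPM at day 7, against 5.66, 12.6 and 6.63 CPM, and Cxcl16 rose by 1.29 ± 0.35. Il18 was at 1.31, 3.17, 0.883 and 1.26 CPM, against 0.342, 0.470 and 0.142 CPM. Osm, the cytokine oncostatin M made by macrophages, had 55 counts over the day 7 libraries, against 1 count over those at homeostasis. Its ratio was 39.3 (interval 6.77 to 1580), scaled by library totals without TMM factors, like the other ratios in this paragraph. Its 4 day 7 libraries were close together, at 0.345, 0.353, 0.518 and 0.397 CPM. Cxcl12, the highest of the list, did not pass (0.09 ± 0.21, adjusted p = 0.784). Neutrophil markers had 2 rises of 11 measured of 14 and a median of 1.94, and without library 2 had 0 rises and a median of -0.02. Their called share with all libraries, 18.2%, was below the 26.0% of all genes tested. Mmp8, neutrophil collagenase, was at 0.173, 3.15, 0.365 and 0.364 CPM in the 4 day 7 libraries, with 137 counts over all 4, against 2 over the 3 at homeostasis (ratio 49.0, interval 13.3 to 408). It was not called without day 7 library 2 (adjusted p = 0.0817) or homeostasis library 2 or 3 (0.0615 and 0.0609). Of 17 lymphocyte markers measured of 18, 1 rose: Gzma, granzyme A, with 154 counts at day 7, against 2 at homeostasis (ratio 55.0, interval 14.98 to 459), most of them in library 2.

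Of 25 type I interferon response genes, 4 rose and 0 fell, with a median of 0.61. This called share of 16% lay below the 26.0% of all genes tested. Irf7, the transcription factor that amplifies the response, was at 27.1, 55.4, 18.9 and 22.6 CPM at day 7, against 11.9, 15.7 and 8.98 CPM, and Ifit3, an interferon-induced RNA-binding protein, was at 18.8, 40.01, 18.03 and 16.3 CPM, against 9.19, 9.57 and 6.52 CPM. In both, library 2 was the highest of the 4, and Ifit3 was not called without it (adjusted p = 0.0618) or without homeostasis library 1 or 3 (0.0529 and 0.0697). Without library 2, 1 of the 25 passed, and without both libraries 0 passed at a median of 0.11. Reads of Ifit3 and its near copy Ifit3b may have been split by the authors' counting. MHC presentation genes behaved alike: of 16, 5 rose, 0 fell and the median was 0.92, against 2 rises and a median of 0.20 without library 2. H2-K1, a class I heavy chain that shares sequence with other H2 genes, was at 355, 747, 179 and 261 CPM, against 164, 155 and 129.7 CPM, and stayed called without both libraries (0.90, adjusted p = 0.0182). Of 18 complement genes, 9 rose, 0 fell and the median was 1.28, against 7 rises and a median of 1.10 without library 2, and 10 rises and a median of 1.48 without both libraries. C1s1 and C1ra, the proteases of the first component, were at 56.3, 86.99, 44.7 and 52.2 CPM and 39.98, 58.6, 34.8 and 32.5 CPM at day 7, against 21.9, 19.8 and 16.2 CPM and 22.6, 11.9 and 14.04 CPM at homeostasis. C1qtnf6, a C1q-like secreted protein, rose by 1.67 ± 0.36. C3, the highest of the list, did not pass with homeostasis library 1 at 319 CPM in the comparison (1.48 ± 0.61, adjusted p = 0.0796), and without that library it did (2.52, adjusted p = 0.0146).

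Some contractile genes fell and several stress and fetal genes rose. Of 20 sarcomere genes, 1 rose, 7 fell, 12 did not pass and the median was -0.44. Actc1, cardiac alpha actin, was at 5743, 3624, 4228 and 4611 CPM at day 7, against 20036, 10991 and 10541 CPM at homeostasis (log2 fold change -1.61 ± 0.23, adjusted p = 6.23e-05). Myh6, the adult alpha myosin heavy chain, was at 19278, 17150.5, 16174 and 17892 CPM, against 38790.0, 24871 and 25217 CPM, and Mybpc3, myosin-binding protein C, fell by 0.88 ± 0.23. Nebl, which codes nebulette of the Z disc, fell by 0.70 ± 0.18, and Myom2, an M-band protein, was the member that rose (0.66 ± 0.19). Without homeostasis library 1, 4 of the 20 fell: Myh6 and Mybpc3 were then at an adjusted p of 0.0626 and 0.0549, and Myom2 at 0.0772. Of 20 cardiac stress and fetal genes, 10 rose, 0 fell and the median was 0.84. Myh7, the fetal beta myosin heavy chain, was at 2648, 1077, 676 and 537 CPM, against 147, 242 and 287 CPM, the highest day 7 library nearly 5 times the lowest. Ankrd1, a stretch-responsive nuclear cofactor, was at 2212, 1059, 1151 and 837 CPM, against 504, 574 and 495 CPM, and Ccn2, connective tissue growth factor, was at 332, 171, 284 and 202 CPM, against 42.3, 67.1 and 72.7 CPM. Hmox1, heme oxygenase, and Mt1, a metallothionein, rose by 2.02 ± 0.37 and 1.70 ± 0.30. Nppa, atrial natriuretic peptide, was at 1102, 59.9, 936 and 177 CPM at day 7, against 1086, 44.01 and 54.2 CPM at homeostasis, and did not pass (adjusted p = 0.804): homeostasis library 1, with its atrial RNA, was as high as the highest day 7 library.

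Genes of excitation and its coupling to contraction fell broadly. With all 7 Q150X libraries, conduction and repolarisation channels had the lowest median of any list outside the atrial and fat markers. Of 22, 0 rose, 15 fell and the median was -0.95. Without homeostasis library 1, 10 fell at a median of -0.59, and chaperones (-0.85) and basement membrane genes (-0.63) then had lower medians. Gja1, the gap junction protein connexin 43, was at 205, 119, 153 and 133 CPM at day 7, against 517, 442 and 427 CPM at homeostasis, 32.99% of that level (log2 fold change -1.60 ± 0.17, adjusted p = 5.82e-06). Kcnd2, a potassium channel of repolarisation, was at 16.2, 14.3, 12.7 and 18.3 CPM, against 44.1, 28.3 and 28.5 CPM. Kcnj5, a subunit of the acetylcholine-gated potassium channel, fell by 1.48 ± 0.22. Without both libraries 9 fell and 1 rose, at a median of -0.73, with these 3 genes still called. Of 19 calcium handling genes measured of 20, 2 rose, 8 fell and the median was -0.31. Atp2a2, the SERCA2 calcium pump, was at 8479.6, 10137, 5393 and 7371 CPM at day 7, against 17844, 14398 and 14292 CPM. Casq2, the calcium store protein calsequestrin, was at 483, 284, 268 and 277 CPM, against 922, 821 and 752 CPM, and Cacnb2, a calcium channel subunit, was at 36.2, 36.6, 34.8 and 37.9 CPM, against 84.5, 78.3 and 103 CPM. Hrc, a calcium-binding protein of the same store, fell by 0.94 ± 0.19, and Sri, sorcin, rose by 0.61 ± 0.13. Without both libraries 8 of the 19 still fell.

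Adrenergic and muscarinic signalling genes also fell on balance: of 17, 3 rose, 8 fell and the median was -0.58, against 2 rises, 5 falls and -0.33 without both libraries. Adrb1, the main beta receptor of cardiomyocytes, was at 8.86, 5.26, 7.80 and 6.75 CPM at day 7, against 39.3, 12.1 and 14.9 CPM, and Chrm2, the muscarinic receptor of vagal slowing, was at 97.6, 75.8, 62.5 and 57.7 CPM, against 173, 159 and 165 CPM. Prkaca, the catalytic subunit of protein kinase A, and Pde4b, a cAMP phosphodiesterase, fell by 0.84 ± 0.16 and 1.09 ± 0.23. The receptor desensitisers rose: Grk5, a receptor kinase, by 0.83 ± 0.19 and Arrb2, a beta arrestin, by 1.06 ± 0.24. Adcy6, the highest of the list, did not pass (0.06 ± 0.12, adjusted p = 0.727).

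Mitochondrial respiration genes were lower by small amounts. All 46 nuclear genes of oxidative phosphorylation measured had a log2 fold change below 0 with TMM factors, 14 of them called, at a median of -0.34. Sdha, the flavoprotein of complex II, was at 999.6, 1129, 832 and 1076 CPM at day 7, against 2227, 1368 and 1463 CPM, and Cycs, cytochrome c, was at 355, 370.0, 439 and 458 CPM, against 810.4, 568 and 583 CPM. In both, homeostasis library 1 was the highest of the 7, and both were called without it. The count depended on the libraries that stand apart: 6 fell without day 7 library 2, 5 without homeostasis library 1 and 3 without both, at a median of -0.19. Scaled by library size alone, 4 fell at a median of -0.12. Of 13 genes of the mitochondrial genome, 5 fell and 0 rose, at a median of -0.46. mt-Nd5, a complex I subunit, was at 16037, 18629, 17398 and 14958 CPM at day 7, against 35271, 32089.9 and 32685 CPM, and mt-Nd2 was at 12821, 15724, 19308 and 17134 CPM, against 22441, 28146 and 28331 CPM. Mitochondrial genes held 21.8% to 26.9% of the counts of the day 7 libraries and 25.6% to 33.7% at homeostasis. Without both libraries 2 of the 13 passed.

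Fuel genes divided. Of 30 genes of fatty acid oxidation and its switch, 8 rose, 1 fell and the median was 0.16, so the list as a whole lay near all genes while a few members moved far. Pdk4, the kinase that shuts pyruvate out of the citric acid cycle, was at 3774, 4836, 3286 and 4241 CPM at day 7, against 89.1, 589 and 759 CPM at homeostasis (log2 fold change 3.07 ± 0.49, adjusted p = 0.000252). Ucp3, a mitochondrial carrier of muscle, was at 152, 194, 168 and 234 CPM, against 23.1, 29.9 and 56.4 CPM, and Acot1, an acyl-CoA thioesterase with close paralogs, was at 49.8, 78.02, 48.9 and 89.1 CPM, against 14.2, 7.28 and 8.69 CPM. All 3 are known targets of PPAR-alpha, while its own gene Ppara was the member that fell, at 17.03, 18.8, 4.26 and 7.11 CPM, against 32.8, 38.5 and 38.3 CPM. Lpl, lipoprotein lipase, did not pass (0.41 ± 0.24, adjusted p = 0.222). Of 29 glycolysis and hypoxia response genes measured of 30, 5 rose, 12 fell and the median was -0.35. Hk2, hexokinase 2, was at 162, 140.2, 104 and 105 CPM at day 7, against 438, 361 and 357 CPM, and Slc2a4, the insulin-regulated glucose transporter, was at 208, 212, 242 and 245 CPM, against 658, 344 and 362 CPM. Pfkm, muscle phosphofructokinase, fell by 0.79 ± 0.16, and Egln3, an oxygen-sensing prolyl hydroxylase induced by hypoxia, fell by 1.79 ± 0.29. Bnip3, a mitophagy receptor, was at 207, 284, 229.7 and 228 CPM, against 47.4, 75.1 and 75.9 CPM, and Hif3a, Ddit4 and Ndrg1 rose by 2.53 ± 0.38, 1.86 ± 0.42 and 1.05 ± 0.24. Hypoxia-inducible genes were found in both directions. Without homeostasis library 1, 6 genes of the list fell and 5 rose, at a median of -0.07.

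Chaperones of both the cytosol and the endoplasmic reticulum (ER) were lower at day 7. Of 23, 1 rose, 14 fell and the median was -0.69. In the ER, Hspa5, the chaperone BiP, was at 405, 522, 305 and 279 CPM at day 7, against 599, 943 and 769 CPM at homeostasis (log2 fold change -1.03 ± 0.22, adjusted p = 0.00195), and Calr, the lectin chaperone calreticulin, was at 192, 217, 155 and 138 CPM, against 332, 334 and 301 CPM. Pdia6, a disulfide isomerase, was at 73.2, 88.2, 56.4 and 61.04 CPM, against 117, 122 and 98.3 CPM, and Hyou1, a large heat shock protein of the ER, fell by 0.90 ± 0.25. Hsp90b1, the ER form of HSP90, was at 163, 189, 111 and 111 CPM, against 126, 316 and 269.5 CPM, with homeostasis library 1 below the other 2 (log2 fold change -0.73 ± 0.25, adjusted p = 0.0393, and 0.0646 with the replicate number as a block). Canx, calnexin, fell by 0.57 ± 0.18. Without day 7 library 3 or 4, or without homeostasis library 2 or 3, neither Hsp90b1 (adjusted p = 0.105 to 0.213) nor Canx (0.0642 to 0.108) was called, and Hyou1 was not called without homeostasis library 2 (0.0576). Dnajb9, an ER co-chaperone of BiP, was the member that rose (0.42 ± 0.14), and it was not called without day 7 library 2 or 4 (adjusted p = 0.112 and 0.0846) or homeostasis library 1 or 3 (0.146 and 0.0578). Creld2 and Xbp1 did not pass (0.22 ± 0.21 and -0.09 ± 0.13). In the cytosol, Hsph1, an HSP110 cofactor, was at 35.6, 31.1, 23.6 and 22.8 CPM at day 7, against 43.7, 175 and 169.9 CPM. Hspa1b was at 1.85, 1.71, 1.58 and 1.75 CPM, against 3.42, 35.7 and 35.8 CPM, and its near-identical neighbour Hspa1a, between which reads may have been split, was at 1.23, 1.73, 1.71 and 2.18 CPM, against 2.13, 20.4 and 22.3 CPM. In these 3 genes homeostasis library 1 was far below the other 2, though above every day 7 library except for Hspa1a. In mitochondria, Hspd1 and Hspe1, the HSP60 and HSP10 pair, fell by 0.75 ± 0.18 and 0.62 ± 0.13. Hspa8, the constitutive HSC70, did not pass (-0.31 ± 0.15, adjusted p = 0.125). Without homeostasis library 1, 16 of the 23 fell, and without both libraries 17 fell at a median of -0.94. Scaled by library size alone, 2 rose and 9 fell, at a median of -0.47.

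**Figure D3:**
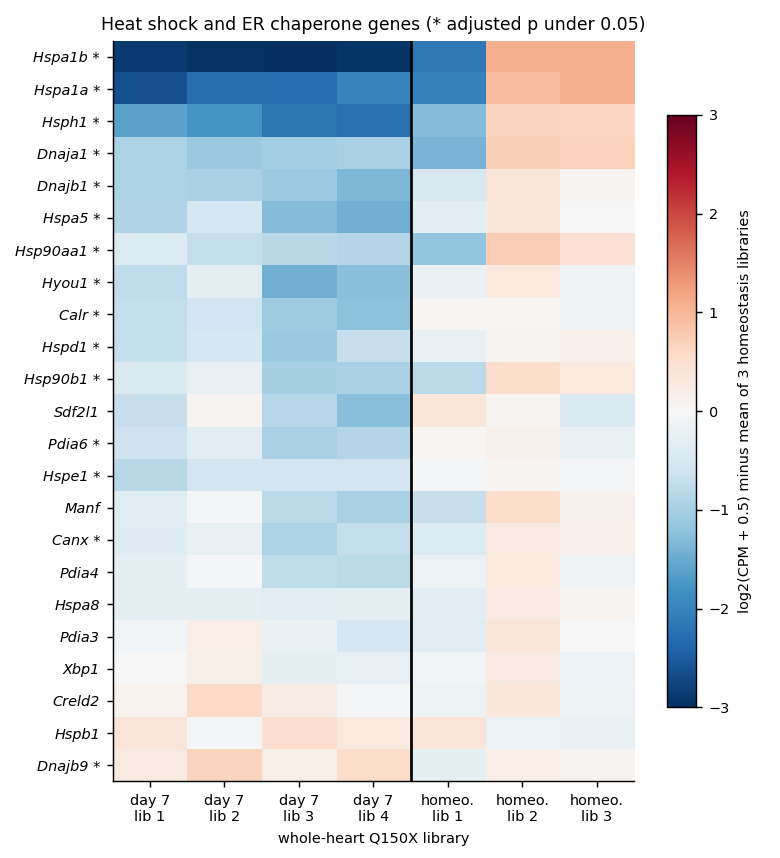
Log2(CPM + 0.5) of the 23 chaperone genes in each Q150X whole-heart library, day 7 after MI in the 4 left columns and homeostasis in the 3 right columns, minus the mean of the homeostasis libraries; asterisks mark an adjusted p below 0.05. Most rows are blue in all 4 day 7 libraries, and homeostasis library 1 is blue for Hspa1a, Hspa1b, Hsph1, Dnaja1 and Hsp90aa1.

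Many ER chaperone genes carry a promoter element, the ER stress response element, in which CCAAT and CCACG are separated by 9 bases. These letters, CCAAT then any 9 bases then CCACG, searched on both strands, occurred in 37 of 32851 RefSeq promoter windows of the 250 bases before a gene's start (0.113%). Windows were given for 19 of the 23 chaperone genes, all but Hsp90aa1, Hspa8, Manf and Hyou1, and 6 of the 19 held the motif: Hspa5, Hsp90b1, Calr, Canx, Pdia6 and Creld2. Of these 6, 5 fell and Creld2 did not pass, while 12 of the 19 fell. The windows of Hspa5, Pdia6, Calr and Hsp90b1 are shown because these genes fell and carry the motif, and that of Creld2 because it carries the motif and did not pass. A motif match describes the sequence only. Each is printed on the gene's strand, 5′ to 3′, with the motif letters in capitals, on whichever strand they were found (CGTGG, 9 bases and ATTGG when on the opposite strand).
Hspa5: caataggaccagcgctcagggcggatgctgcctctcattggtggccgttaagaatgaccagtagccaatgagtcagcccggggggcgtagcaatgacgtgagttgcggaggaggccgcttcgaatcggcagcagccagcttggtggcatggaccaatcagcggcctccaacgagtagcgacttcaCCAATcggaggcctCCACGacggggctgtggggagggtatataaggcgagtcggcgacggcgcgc
Pdia6: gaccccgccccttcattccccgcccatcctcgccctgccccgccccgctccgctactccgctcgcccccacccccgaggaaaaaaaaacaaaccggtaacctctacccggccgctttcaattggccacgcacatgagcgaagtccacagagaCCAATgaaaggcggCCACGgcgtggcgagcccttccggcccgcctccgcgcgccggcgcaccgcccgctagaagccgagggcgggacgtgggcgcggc
Calr: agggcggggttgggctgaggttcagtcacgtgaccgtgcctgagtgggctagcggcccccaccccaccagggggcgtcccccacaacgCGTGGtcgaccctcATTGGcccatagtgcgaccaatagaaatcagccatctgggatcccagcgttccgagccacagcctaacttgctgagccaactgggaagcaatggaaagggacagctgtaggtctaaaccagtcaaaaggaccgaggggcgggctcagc
Hsp90b1: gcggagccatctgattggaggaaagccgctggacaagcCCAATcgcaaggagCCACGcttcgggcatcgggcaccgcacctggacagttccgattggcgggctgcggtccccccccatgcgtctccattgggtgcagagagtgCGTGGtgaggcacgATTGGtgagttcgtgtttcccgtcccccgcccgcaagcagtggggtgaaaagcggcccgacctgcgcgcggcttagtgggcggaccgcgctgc
Creld2: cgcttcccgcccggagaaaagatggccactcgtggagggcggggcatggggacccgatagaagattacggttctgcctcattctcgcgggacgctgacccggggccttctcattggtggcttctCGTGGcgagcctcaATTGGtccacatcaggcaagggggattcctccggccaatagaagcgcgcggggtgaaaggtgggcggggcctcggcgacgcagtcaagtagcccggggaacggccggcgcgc
In GRCm38.p6 the windows lie at chr2:34771840-34772089 (forward strand, Hspa5), chr12:17266339-17266588 (forward strand, Pdia6), chr8:84846932-84847181 (reverse strand, Calr), chr10:86705445-86705694 (reverse strand, Hsp90b1) and chr15:88819396-88819645 (forward strand, Creld2). The Hspa5 motif begins 65 bases before the start and that of Pdia6 98 bases before it. Hsp90b1 held the motif in both orientations. The heat shock element was searched as GAA, TTC and GAA with any 2 bases after the first and after the second, on both strands, found in 153 windows (0.466%). Among the 19 genes an exact match occurred for Hspd1 and Hspe1, which share a promoter region and both fell. The windows of Hspa1a, Hspa1b and Hsph1 held no exact match. Imperfect copies of the element were not searched for, so those windows may still hold one.
Hspe1: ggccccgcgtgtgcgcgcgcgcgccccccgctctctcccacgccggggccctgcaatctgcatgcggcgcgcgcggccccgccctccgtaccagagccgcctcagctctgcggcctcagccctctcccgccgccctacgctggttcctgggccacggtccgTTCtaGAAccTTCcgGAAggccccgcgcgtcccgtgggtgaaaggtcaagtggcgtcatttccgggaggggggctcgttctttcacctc
The capitals in the Hspe1 window, at chr1:55087898-55088147 (forward strand, Hspe1), mark that motif.

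Vegfa mRNA itself did not pass the test. It was at 314, 289, 314 and 328 CPM in the day 7 libraries, against 149.7, 621 and 483 CPM at homeostasis (ENSMUSG00000023951, log2 fold change -0.42 ± 0.37, adjusted p = 0.419). The 4 day 7 libraries lay close together and between homeostasis library 1 and the other 2. Without library 1 the log2 fold change was -0.82 (adjusted p = 0.0657), and without both it was -0.79 (adjusted p = 0.111). Gene counts do not tell the edited from the unedited transcript. Kdr, the main signalling receptor, was at 155, 157, 122 and 159 CPM, against 103, 332 and 302 CPM (-0.73 ± 0.29, adjusted p = 0.0698), and was lower by 1.09 without homeostasis library 1 (adjusted p = 0.00162). Flt1, the decoy-like receptor, was at 137, 221, 181 and 209 CPM, against 94.2, 226 and 219 CPM, and did not pass (0.06 ± 0.27, adjusted p = 0.897). Of the 10 ligands, receptors and neuropilins, 2 rose, 3 fell and the median was -0.33. Nrp1, the co-receptor that binds VEGF-A, was at 57.7, 45.9, 41.4 and 38.9 CPM at day 7, against 81.7, 147 and 128 CPM (log2 fold change -1.37 ± 0.19, adjusted p = 4.65e-05). Nrp2 was at 42.6, 33.2, 34.1 and 26.9 CPM, against 25.4, 103 and 85.9 CPM, and was not called with the replicate number as a block (adjusted p = 0.0506), nor without day 7 library 4 or homeostasis library 2 or 3 (0.0581, 0.138 and 0.0772). Pgf, placental growth factor, was at 7.33, 9.32, 9.72 and 9.30 CPM, against 5.35, 4.60 and 5.95 CPM, and Vegfd, a lymphangiogenic ligand, was at 6.47, 4.998, 8.71 and 7.71 CPM, against 4.29, 0.638 and 2.42 CPM. Pgf was not called without day 7 library 3 or homeostasis library 2 (adjusted p = 0.0501 and 0.0742), nor Vegfd without day 7 library 3 or 4 or homeostasis library 2 or 3 (0.0512 to 0.0883). Vegfb was at 128, 123, 153 and 170.1 CPM, against 349, 144 and 173 CPM, a fall not called without homeostasis library 1 (adjusted p = 0.599) or without day 7 library 1, 2 or 3 (0.0684 to 0.109).

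Endothelial identity genes stayed near the centre. Of 24, 1 rose, 1 fell and the median was 0.16, and their summed level was 1570 to 1735 CPM at day 7 and 1269 to 1773 CPM at homeostasis. Cdh5, VE-cadherin, did not pass (-0.36 ± 0.18, adjusted p = 0.153). Sox17, an arterial transcription factor, was at 30.7, 48.1, 52.8 and 50.8 CPM, against 9.83, 11.5 and 13.7 CPM. Of 2 further lists of endothelial genes, the members that passed mostly fell in one and rose in the other; the difference between the lists was not tested. Sprouting and immature endothelial genes had 2 rises and 7 falls of 26, with a median of -0.36. Beside Apln, its receptor gene Aplnr was at 18.7, 3.76, 11.4 and 7.38 CPM at day 7, against 28.01, 50.4 and 32.5 CPM, and Mcam, an adhesion molecule of vessels, was at 36.1, 22.9, 28.3 and 29.6 CPM, against 46.3, 68.1 and 54.3 CPM. The guidance receptor Unc5b fell by 1.01 ± 0.26, and the Notch ligand Jag1 rose by 0.62 ± 0.16. Without homeostasis library 1, 10 of the 26 fell, and without both 6 did, at a median of -0.06; scaled by library size alone, 4 rose and 3 fell, at a median of -0.10. Capillary lipid transport genes had 8 rises and 0 falls of 12, with a median of 0.83. Fabp4, a fatty acid binding protein of capillaries and of fat, was at 1117, 1079, 1442 and 1562 CPM, against 286, 549 and 517 CPM. Car4, the carbonic anhydrase anchored to capillaries, was at 61.03, 78.6, 95.8 and 99.7 CPM, against 10.1, 33.9 and 23.6 CPM, and Gpihbp1, which carries lipoprotein lipase across the capillary wall, was at 102, 119, 127 and 161 CPM, against 33.5, 74.4 and 75.7 CPM. In these 3 genes homeostasis library 1 was the lowest of the 7, and 4 of the 12 rose without it, these 3 among them.

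Mural cell genes fell where they passed: of 16 pericyte and smooth muscle genes, 0 rose, 5 fell and the median was -0.57. Vtn, vitronectin, a pericyte marker in several tissues, was at 11.6, 14.4, 15.99 and 16.8 CPM at day 7, against 34.2, 29.2 and 29.1 CPM, and Notch3, the receptor of mural cells, was at 27.4, 26.5, 24.2 and 24.9 CPM, against 56.4, 45.8 and 43.6 CPM. Abcc9, a subunit of their ATP-sensitive potassium channel that cardiomyocytes also make, fell by 0.95 ± 0.22. Without both libraries 4 fell and 1 rose, at a median of -0.23. All 13 epicardial and mesothelial genes lay above 0, at a median of 1.57, while 2 passed. That called share, 15.4%, was below the 26.0% of all genes tested. Upk1b, a mesothelial uroplakin, was at 3.80, 1.15, 3.14 and 7.11 CPM at day 7, against 0.456, 0.0336 and 0.0713 CPM, and was not called without homeostasis library 2 or 3 (adjusted p = 0.0558 and 0.0543). Of 8 lymphatic genes, 4 rose, 1 fell and the median was 0.70. Without both libraries 3 rose and 1 fell, at a median of 0.73. Pdpn, podoplanin, was at 19.5, 21.2, 11.9 and 12.01 CPM, against 4.29, 3.26 and 3.10 CPM, and the chemokine Ccl21a, which has near copies in the mouse, was at 38.1, 40.2, 31.4 and 18.3 CPM, against 11.9, 9.03 and 8.69 CPM. Mmrn1 rose by 1.68 ± 0.38, and Prox1, the lymphatic master regulator that cardiomyocytes also express, fell by 0.99 ± 0.16. Red blood cell markers, 8 in all, and Schwann cell and nerve markers, 10 in all, had 0 members called by edgeR or DESeq2 with 7 Q150X libraries in the comparison. At an unadjusted p below 0.05 they had 0 and 1 in that order. By limma voom, 0 of the red blood cell markers and 3 of the nerve markers were called, of which 2 rose and 1 fell. Without homeostasis library 1, edgeR called 2 nerve markers, both rising, and without both libraries 1.

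Several further groups changed in part. Of 18 microtubule genes, 1 rose, 9 fell and the median was -0.53. With Tuba4a, its striated-muscle relative Tuba8 was at 47.9, 39.95, 37.2 and 46.4 CPM at day 7, against 406, 143 and 127 CPM, Ttl, the tubulin tyrosine ligase, was at 21.5, 19.1, 16.6 and 17.9 CPM, against 38.8, 31.1 and 34.5 CPM, and Tubg1, gamma tubulin, fell by 1.53 ± 0.27. All 4 were highest in homeostasis library 1 and were called without it. Of 19 circadian clock genes, 6 rose, 4 fell and the median was 0.35. Without homeostasis library 1, 7 rose and 2 fell at a median of 0.04, and without both libraries the counts were the same at a median of -0.007. The repressor Nr1d1 was at 19.1, 24.7, 32.1 and 29.3 CPM, against 259, 51.96 and 90.1 CPM, and Bhlhe40 fell by 1.26 ± 0.18. Per2 was at 38.9, 54.5, 50.3 and 58.8 CPM, against 11.1, 25.6 and 28.4 CPM, and Cry1 and Rora rose by 1.03 ± 0.19 and 0.77 ± 0.14. The hour of collection is not stated in the labels, so a shift in the clock and the hour of sampling cannot be told apart. Of 16 integrated stress response genes measured of 18, 8 rose and 1 fell, at a median of 0.49. Without both libraries 5 rose and 0 fell, at a median of 0.73. Pck2, mitochondrial phosphoenolpyruvate carboxykinase, was at 23.1, 18.5, 26.4 and 22.7 CPM, against 11.3, 10.04 and 10.3 CPM, Psat1 of serine synthesis rose by 1.03 ± 0.22, and the secreted stress signal Gdf15 was at 16.1, 2.06, 6.28 and 2.15 CPM, against 0.873, 1.28 and 0.570 CPM. Of 22 immediate early genes measured of 23, 4 rose and 0 fell, at a median of 0.50. Their called share, 18.2%, was below the 26.0% of all genes tested. Myc was at 12.2, 15.6, 14.4 and 20.7 CPM, against 3.95, 3.96 and 1.35 CPM, and Fosl2 rose by 1.06 ± 0.22.

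Replication and mitosis genes showed 3 rises and 3 falls of 30, at a median of 0.26. This called share of 20% lay below the 26.0% of all genes tested. Those that rose were Birc5, Mcm7 and Cdk1. Without homeostasis library 1, and without both libraries, 1 rose and 3 fell. Ccnd1, the G1 cyclin D1, was at 18.98, 21.6, 13.1 and 11.1 CPM at day 7, against 28.01, 55.3 and 44.01 CPM, and the replication licensing genes Mcm2 and Mcm5 fell by 1.18 ± 0.28 and 1.16 ± 0.28. Of 11 IGF genes, Igf1r, the receptor, rose (0.89 ± 0.17) and 2 fell, a called share of 27.3%, near that of all genes tested. Without homeostasis library 1, without day 7 library 2 and without both, 2 rose and 0 fell. Of 19 natriuretic, endothelin and angiotensin genes measured of 21, 3 rose and 2 fell, at a median of 0.05. Their called share, 26.3%, was near the 26.0% of all genes tested. Edn1, the vasoconstrictor endothelin-1, was at 8.66, 5.94, 10.9 and 7.71 CPM, against 2.54, 4.30 and 2.74 CPM, and Corin, the protease that activates natriuretic peptides, was at 311, 342, 285 and 316 CPM, against 216, 213 and 197 CPM. Of 21 integrin subunits, 5 rose and 5 fell, at a median of 0.64. Itgam, the alpha M subunit of myeloid cells, was at 6.93, 18.1, 4.33 and 3.57 CPM, against 0.721, 1.44 and 1.28 CPM, and the fibronectin receptor subunit Itga5 rose by 0.72 ± 0.17. Itga9 fell by 1.40 ± 0.26. In the 2 remaining lists the medians, but not the adipocyte rises, follow homeostasis library 1. Of 10 atrial genes measured of 12, 4 fell, and of 12 adipocyte markers, 4 rose and 2 fell. Without that library 1 atrial gene fell and 1 rose, and 4 adipocyte markers rose and 0 fell. Hcn4, the pacemaker channel, fell to 3.95, 1.41, 2.80 and 2.28 CPM, against 31.7, 9.06 and 7.45 CPM, and was called without it (adjusted p = 0.00184).

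**Figure D4:**
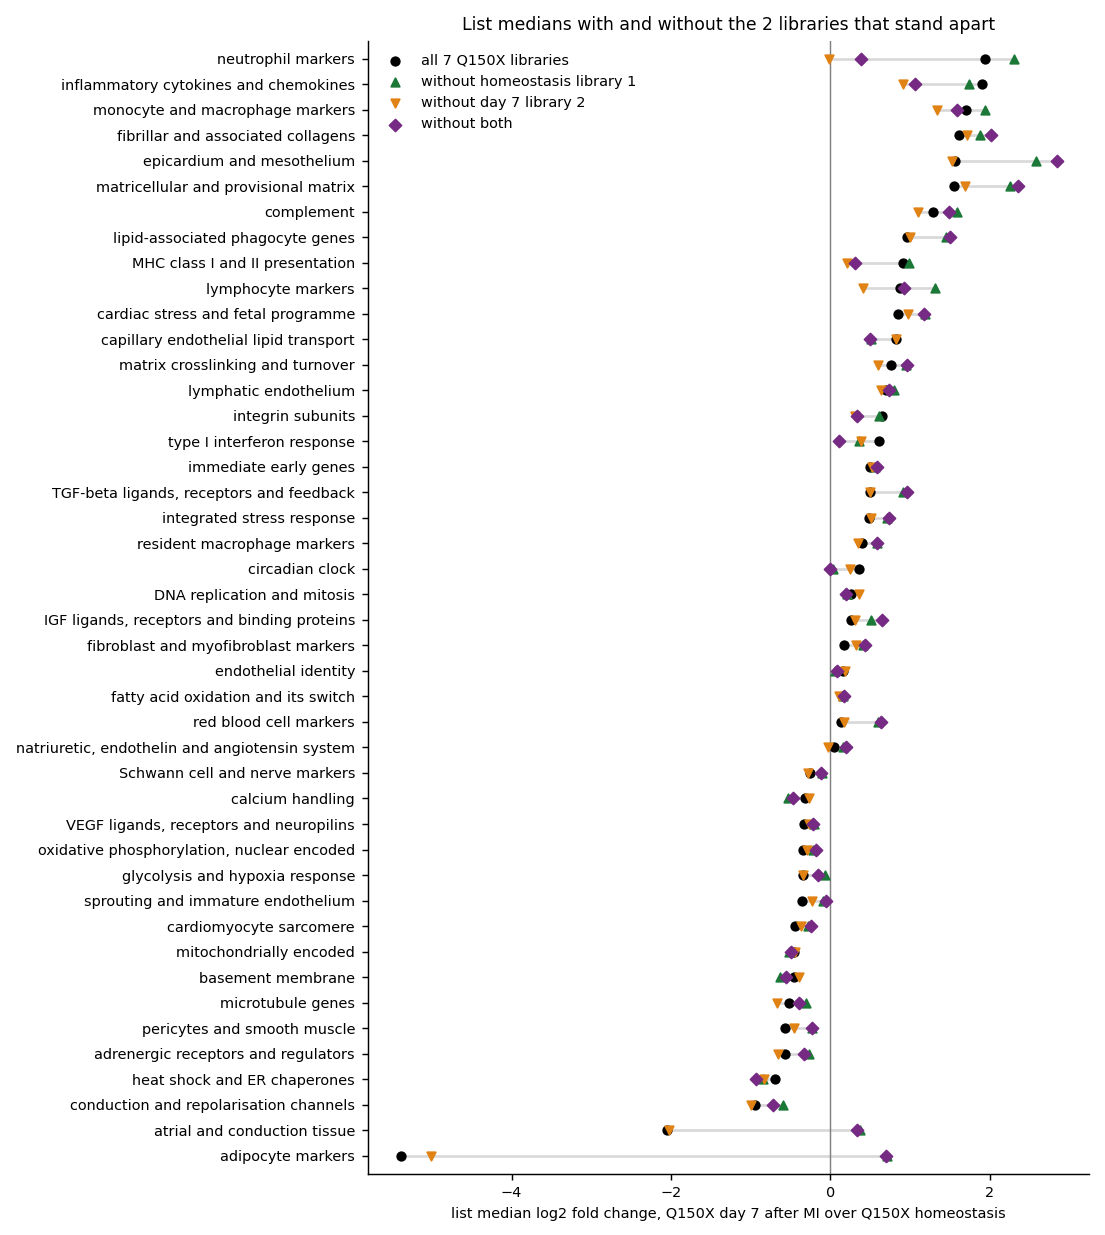
Median log2 fold change (x axis, Q150X day 7 after MI over homeostasis) of the 44 gene lists with all 7 Q150X libraries, without homeostasis library 1, without day 7 library 2 and without both. Atrial and adipocyte medians change sign without homeostasis library 1. Without day 7 library 2 the neutrophil median is -0.02 and the natriuretic, endothelin and angiotensin median -0.04. The circadian clock median is -0.007 without both. Scar and chaperone lists keep their side of 0.

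Whether the response at day 7 differed between Q150X and wild-type hearts was tested as an interaction over the same fit. No gene passed: 0 of 17845 (0%), with a smallest adjusted p of 0.532 and 588 genes at an unadjusted p below 0.05. DESeq2 called 1 gene and limma voom 0. The smallest unadjusted p-values among genes with an average of at least 1 log2 CPM, given as a description, belonged to genes that were not called. For a larger change in Q150X hearts they were Tlr13, at 2.22 ± 0.53 (log2 difference, SE), Tmem254a, at 1.90 ± 0.52, and Tlr7, at 1.57 ± 0.45. For a smaller or more negative change they were Slc22a3, at -1.08 ± 0.29, Lsmem1, at -0.88 ± 0.24, and Epha4, at -0.82 ± 0.24. Both homeostasis groups have a library 1 with atrial and fat RNA: that of wild type held 525 CPM of Myl7 and 93.4 CPM of Fasn, against at most 0.0607 and 20.01 CPM in the other 6 wild-type libraries. The atrial list had a median of -2.04 in Q150X and -2.09 in wild-type hearts, and 0.37 and 0.67 without library 1 of both genotypes. Without both of these libraries, a fit added after seeing the data, 3123 genes rose in Q150X hearts, of which 3061 were above 0 in wild-type hearts, and 2160 fell, of which 2118 were below 0. That fit called 0 genes for the difference between genotypes, with 873 at an unadjusted p below 0.05. The changes of the leading genes in wild-type hearts, on the log2 scale, were 4.29 ± 0.46 for Lox, 3.26 ± 0.50 for Postn, -3.89 ± 0.34 for Itgb6, -3.08 ± 0.26 for Tuba4a and -1.33 ± 0.17 for Gja1. The largest gaps between list medians lay in immune lists: monocyte and macrophage markers had a median of 1.70 in Q150X and 0.60 in wild-type hearts, and MHC presentation genes 0.92 in Q150X and -0.35 in wild-type hearts. No member of any list passed the test of that difference, and without day 7 library 2 the Q150X medians were 1.33 and 0.20. The standard errors were wide: for Mpeg1 the log2 difference was 1.54 ± 0.66, and for H2-K1 it was 1.14 ± 0.45.

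**Figure D5:**
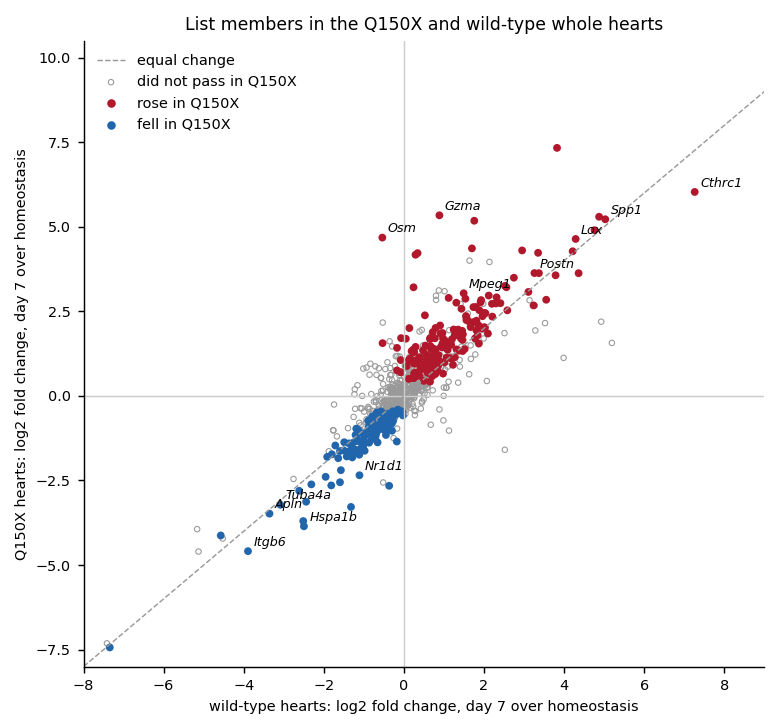
Log2 fold change, day 7 after MI over homeostasis, in Q150X hearts (y axis) and wild-type hearts (x axis) for 795 list members; red rose and blue fell in Q150X hearts, open points did not pass, and the dashed line marks equal change. Lox, Postn, Tuba4a and Itgb6 lie near that line, and Osm and Gzma, which rest on few counts, lie above it; 6 atrial and fat genes that homeostasis library 1 sets are left off.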

How the data were processed

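Whole-heart RNA was extracted with Trizol with 2 µg used per library, per the labels' protocols. The authors deposited a table of raw counts per gene for 57010 genes in 43 libraries. The submitters' processing notes name GRCm39 as build and list HISAT2 and kallisto as tools. Neither the tool behind the counts nor its version, strand setting and annotation is known from the sources used here, so overlapping and antisense genes may share reads. Symbols for 52029 identifiers came from an annotation of GRCm38 by gene identifier. Promoter windows are RefSeq sequences of GRCm38.p6.

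Counts of the 21 whole-heart libraries were fitted together, with 1 mean per group, by edgeR 4.0.16 (R 4.3.3): genes with a count of about 10 in enough libraries and 15 in all, TMM factors, robust quasi-likelihood tests, and Benjamini-Hochberg adjustment over 17845 genes at 0.05. Errors of log2 fold changes are standard errors from the test statistic. The script was tested on simulated data. Ratios of counts scaled by library totals, without TMM factors, were computed where a group held 1 to 3 counts. Their exact 95% intervals cover counting error only.

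Alternatives were DESeq2 1.42.0 size factors, library size alone, no filter, the compared groups alone, the replicate number as a block, DESeq2, limma 3.58.1 voom with sample weights, each library left out in turn, and both libraries that stand apart left out; homeostasis library 1 of both genotypes was left out as an alternative chosen after seeing the data. Libraries with the same number deviated together from their group means (correlations across genes of 0.166, 0.104 and 0.125 for numbers 1, 2 and 3). Each was above 0.1, the limit set for treating the numbers as pairs. The main fit nevertheless had no block, so its p-values are unpaired, and the replicate number entered only as the alternative above. This possible pairing comes from these data and not from the labels.

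Genes were named by rule: Vegfa and its receptors; the 12 largest called changes in each direction at 1 log2 CPM or more with no overlap of groups, leaving out numbered and predicted transcripts; the 3 smallest p in each direction between genotypes; and, in each of the 44 lists, up to 4 called members per direction with the smallest p and the member of highest level. Some genes that the rule names are not reported here. Other members that did not pass are given as examples. Hsp90b1, Hsp90aa1, Canx, Pdia6, Hyou1, Dnaja1, Hspa1a, Hspd1, Hspe1, Fasn, Gbp2, Ddx3y, Xist, Liph, Snap25 and Syt1 lie outside the rule and were chosen after their values were seen. Gria2, Grin2b, Rab3c, Vsnl1 and Rims1 also lie outside the rule. The libraries compared, the lists and the alternatives were chosen with earlier results of these data known. Libraries of endothelial cells and cardiomyocytes were not used here.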

Additional observations from a re-analysis of the deposited data

Results flagged for a closer look

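Within the 4 day 7 libraries, 18 of the 199 genes examined had 1 library far from the other 3, by a gap to the nearest library above Dixon's 95% critical value for 4 libraries. Chance alone flags about 1 group in 20, and groups of 3 were not examined.

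Day 7 library 2 was the high one for 8 genes. Gbp2 was at 364 CPM there and at 17.97 to 33.9 CPM in the other 3. Saa3 was at 586 CPM there and at 4.57 to 73.2 CPM elsewhere, and Plac8 at 40.0 CPM and at 2.81 to 8.27 CPM. Ifit3 was at 40.0 CPM there and at 16.3 to 18.8 CPM elsewhere. Mmp3 was at 42.0 CPM there and at 10.8 to 12.8 CPM elsewhere, and Mmp8 at 3.15 CPM and at 0.173 to 0.365 CPM. Gzma was at 3.03 CPM there and at 0.420 to 0.662 CPM elsewhere. Hmox1 was at 47.5 CPM, with 27.3 to 30.1 CPM in the others. In the same library Lingo3 was low, at 1.12 CPM, with 1.61 to 1.65 CPM in the others.

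Day 7 library 1 was the high one for Casq2 (483 CPM, the others 268 to 284), Fstl1 (409 CPM, the others 211 to 244) and Itga9 (58.5 CPM, the others 27.6 to 30.9). It was the low one for Hspe1 (54.6 CPM, the others 66.1 to 66.3) and Ndrg1 (51.9 CPM, the others 70.4 to 72.4). Its 0.0494 CPM of Myl7 rests on 2 counts, with 0 in the others. Liph, at 0.122 CPM in library 3, and Snap25, at 0.132 CPM in library 4, were likewise at 0 in the others. Day 7 library 3 was the low one for Kdr, at 122 CPM, with 155 to 159 CPM in the others.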

How the results depend on the processing

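Of the 180 called genes among the 199 named, 134 kept their call and direction under all 15 alternatives that give the Q150X change, and 46 lost the call under at least 1; 9 genes not called passed under at least 1. Fitting the compared groups alone gave 2247 called genes, against 4641, and 207 called list members, against 322; this fit estimates the spread from 7 libraries in place of 21. DESeq2 called 1 gene, Liph, for the difference between genotypes, against 0, and every other setting called 0, with 444 to 1524 genes at an unadjusted p below 0.05. With all 7 Q150X libraries, the other settings gave counts of called genes within 1.5 times 4641, between 3613 without a filter on low counts and 6250 with voom. Leaving out 1 library at a time gave 3548 to 4423 called genes, 261 to 301 called list members and 0 genes differing between genotypes. The changes of Ucp1 and Myl7 rest on homeostasis library 1: without it the fitted log2 fold change of Ucp1 was 0, as without both libraries, and without both that of Myl7 was 0.13. Leaving out 1 library at a time put Ucp1 between -11.728 and 0. Leaving out homeostasis library 1 of both genotypes, an alternative chosen after seeing the data, gave 5283 called genes in Q150X hearts and 0 differing between genotypes. The replicate block gave 4308 called genes. It ended the calls of Hsp90b1 and Nrp2, given above, and of Hsp90aa1 (adjusted p = 0.101), Myl7 (0.0758) and Ucp1 (0.147), added that of Tmem254a (0.0425), and changed no other call among the named genes. Genes below about 1 CPM rest on few counts per library, and smaller changes of them were not detectable at this depth.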

Other observations

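2 neuronal genes, Snap25 and Syt1, picked after their values were seen and on no list, were lower at day 7. Snap25, a protein of synaptic vesicle fusion, was at 0, 0, 0 and 0.132 CPM in the day 7 libraries, against 0.380, 1.71 and 2.39 CPM at homeostasis. Syt1, the calcium sensor of the same machinery, was at 0 in all 4 day 7 libraries, against 0.607, 1.41 and 1.89 CPM at homeostasis. Of the other neuronal genes looked at, Gria2, Grin2b, Rab3c, Vsnl1 and Rims1, none was above 0.122 CPM (Vsnl1) at day 7. Their highest homeostasis values ran between 0.428 CPM (Grin2b) and 0.949 CPM (Vsnl1). Gria2, Grin2b and Rims1 were at 0 in homeostasis library 1. These genes are not among the 199 counted above. The levels are low in every library.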
